A study of Rattus norvegicus with 4 samples.

Results

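The aldo-keto reductase, aldehyde dehydrogenase, alcohol dehydrogenase and steroid dehydrogenase genes of rat liver were compared across prenatal nutrition and adult diet. Members were taken by gene symbol, under a rule chosen with earlier results of these data known. It took every row of the normalized table named Akr, Aldh, Adh, Hsd3b, Hsd11b, Hsd17b or Srd5a followed by its number. Aldh1a1, Aldh1a7 and Hsd17b7 were left out. This gave 48 of 21791 rows, made up of 13 Akr, 12 Aldh, 4 Adh, 3 Hsd3b, 2 Hsd11b, 10 Hsd17b and 4 Srd5a genes. Livers came from Wistar males at an age of 4 months, and biotinylated cRNA made from their total RNA was read on Illumina expression arrays. Control offspring and prenatally undernourished offspring, called FR30, had each been kept on a standard or a high-fat (HF) diet. Each of these 4 groups is represented by 1 deposited sample, and the sources used here do not say whether a sample pools several animals. No difference below therefore has a replicate check, a test or a p-value.

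Most of these enzymes move hydride between a carbonyl and an alcohol, or oxidise an aldehyde to an acid, with NAD or NADP as cofactor. In liver, alcohol dehydrogenases oxidise ethanol and retinol, and aldehyde dehydrogenases remove the aldehydes that arise from alcohol, lipids, amino acids and amines. Aldo-keto reductases reduce aldehydes, ketosteroids and bile acid precursors. Hydroxysteroid dehydrogenases and 5-alpha-reductases convert glucocorticoids, androgens and oestrogens between more and less active forms, and several of their relatives work in fatty acid or bile acid metabolism instead.

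Each level below is a deposited signal in intensity units with a deposited standard deviation (STDEV) over an unstated number of measurements. The signals keep a background of about 153 to 154 units, the mean of the negative controls inferred from the detection p-values. Differences were therefore taken after background correction and quantile normalization, on the log2 scale, and a fold is the corresponding ratio. A detection p-value under 0.05 made a gene detected in that sample. Unless another order is named, 4 values in a row are those of control on standard diet, control on high-fat diet, FR30 on standard diet and FR30 on high-fat diet. The samples had between 8996 and 9220 detected genes of 21480. Of 8 hepatocyte markers, 6 were on the array, and all 6 were detected on every sample, with summed signals from 231649 to 261422. The STDEV exceeded 20% of the signal for 114 detected genes in the FR30 standard sample, and for 0 or 1 in each of the others. Adipocyte markers (5 of 5 on the array) summed to 6573 in that sample and to between 1794 and 2299 in the others, brown fat markers (3 of 3) to 2941 against 680.1 to 829 in the control samples and 1027 in the FR30 high-fat sample, and skeletal muscle markers (5 of 5) to 1436 against 785 to 817. In the non-normalized table the same FR30 standard sums were 1549.5, 712 and 767. Erythroid markers (4 of 5 on the array) summed to 11219 and 11531 on the standard diet and to 18439 and 19952 on the high-fat diet, in control and FR30 offspring respectively. The part of these markers in the differences below was not tested. Because the tissue was measured in bulk, fewer cells of a type and less RNA per cell cannot be told apart.

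Of the 48 members, 34 were detected on all 4 samples, 2 on some samples and 12 on none. The 12 undetected genes had signals between 98.1 and 180.0, within or close to the background. They were Adh6a, Akr1b7, Akr1b8, Akr1b10, Aldh1a2, Aldh3a1, Aldh3b1, Aldh6a1, Hsd17b1, Hsd3b1, Srd5a3 and Srd5a2l2. The gene called Srd5a2l2 in the file is now named Tecrl, so that only its older name places it with the 5-alpha-reductases. Of the 48, 12 members differed by at least 1.5-fold in 1 or more of the 4 comparisons, and 23 others, detected on every sample, did not. The share of all genes that differed in any of the 4 comparisons is not given here, and shares for each comparison follow below. Among those 23 the ratio of the highest to the lowest deposited signal ran from 1.03 to 1.56. The remaining gene, Hsd11b2, which inactivates glucocorticoids in kidney, was detected on both standard diet samples alone, at 186.7 and 184.4.

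**Figure D1:**
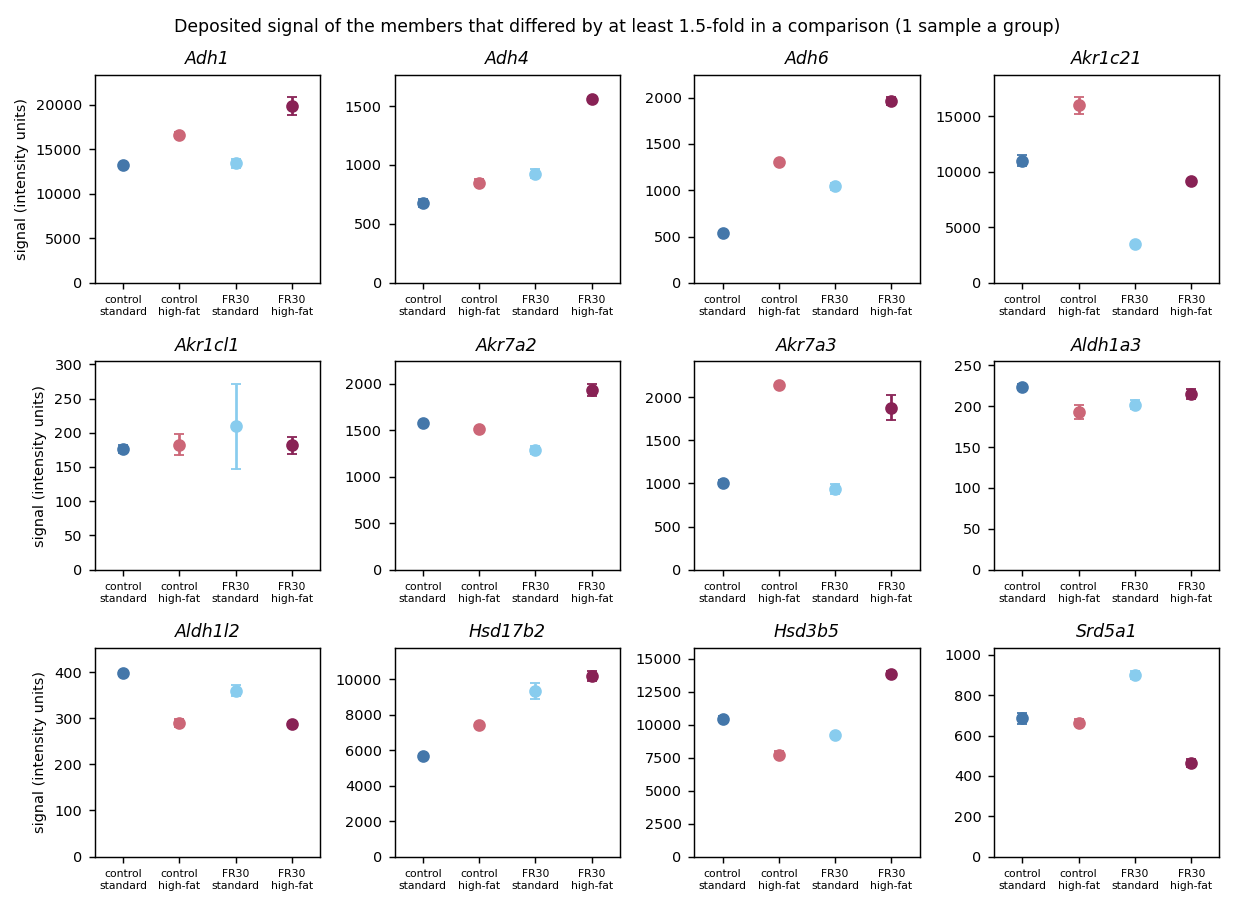
Deposited signal (vertical axis, intensity units, from 0) of the 12 members that differed by at least 1.5-fold in a comparison, in the control and FR30 samples on standard and high-fat diet. Points are the signal of 1 sample and bars its deposited STDEV. Adh4 and Adh6 are lowest in the control standard and highest in the FR30 high-fat sample, Akr7a3 is high in both high-fat samples, and Akr1cl1 has a wide bar in the FR30 standard sample.

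The comparison of diets in control offspring asks which of these enzymes differed with the high-fat diet alone. Adh6, Akr7a3, Aldh1l2 and Aldh1a3 did so by at least 1.5-fold, the first pair higher and the last pair lower on the high-fat diet. These are 4 of 35 members with a value, against 6.02% of 9466 genes compared in the same way. In FR30 offspring 8 of 36 members differed with diet, against 7.26% of 9541 genes. Adh1, Adh4, Adh6, Akr1c21, Akr7a2 and Akr7a3 were higher on the high-fat diet there, and Srd5a1 and Akr1cl1 were lower. Adh6 and Akr7a3 were thus higher by at least 1.5-fold with diet in both kinds of offspring, which come from separate samples, and 0 members were lower in both, of 34 detected on all samples. Over all genes with a value in both diet comparisons, bounds included, 104 were higher and 85 lower by at least 1.5-fold in both. A further 33 passed 1.5-fold in opposite directions, as 0 members did. Of these genes with values, 8457 were detected on all 4 samples. The counts include bounds, so 8457 is not their base and no share is given.

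The comparison of FR30 with control offspring under standard feeding asks what differed with prenatal undernutrition without the dietary load. Akr1c21 was lower in the FR30 sample, and Adh6, Hsd17b2 and Akr1cl1 were higher: 4 of 36 members, against 4.36% of 9520 genes. On the high-fat diet 5 of 34 members differed, against 3.47% of 9430 genes. Adh4, Adh6 and Hsd3b5 were higher in the FR30 sample, as were 1.88% of all genes, and Akr1c21 and Srd5a1 lower, as were 1.59%. Adh6 was higher and Akr1c21 lower on both diets, 1 of 34 members each. Over all genes with a value on both diets, bounds included, 16 were higher and 25 lower by at least 1.5-fold on both. A further 35 passed 1.5-fold in opposite directions on the 2 diets, as 0 members did. Of these genes with values, 8457 were detected on all 4 samples. The counts include bounds, so 8457 is not their base and no share is given. Because every sample is used for a diet and for a prenatal comparison, a single value that stands apart is counted in both, and the counts are not separate results.

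**Figure D2:**
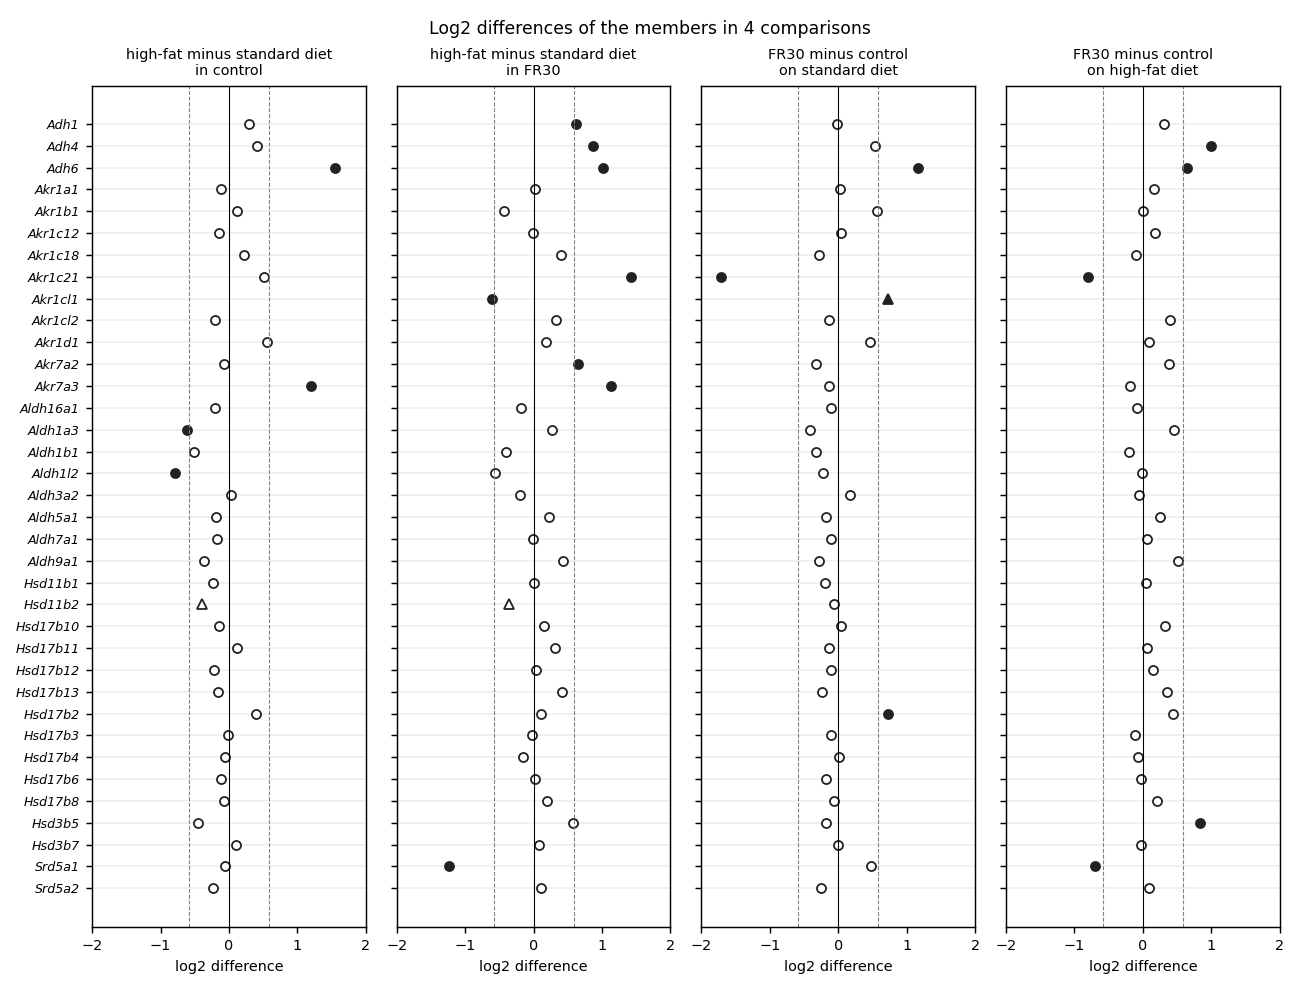
Log2 differences (horizontal axes) of the 36 members detected on at least 1 sample, in the 4 comparisons named above the panels. Circles are genes detected on both samples, triangles are bounds for genes detected on 1 of them, filled symbols passed 1.5-fold (dashed lines). Akr1c21 has the lowest value, -1.71, in FR30 minus control on the standard diet, and Adh6 is filled in every panel.

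Each of the 3 detected alcohol dehydrogenases had a higher value on the high-fat diet in both kinds of offspring. Adh6, the class V enzyme, whose substrates are poorly known, had signals of 540.3, 1306, 1041 and 1964. The control standard sample was the low one, and the deposited STDEV was at most 3.42% of the signal. Adh6 was 2.92-fold higher with diet in control and 2.03-fold in FR30 offspring, and 2.24-fold and 1.56-fold higher in FR30 than in control offspring on the standard and the high-fat diet. Adh4, the class II enzyme, which oxidises retinol and longer alcohols, read 678.5, 849, 925 and 1563. Its largest difference was 1.99-fold, FR30 over control on the high-fat diet, and with diet it was 1.33-fold higher in control and 1.82-fold in FR30 offspring. Adh1 (now Adh1c), the class I enzyme that carries out most hepatic ethanol oxidation, read 13191, 16591, 13438 and 19856. The standard diet samples of Adh1 lay close together, and the gene was higher with diet by 1.22-fold in control and 1.53-fold in FR30 offspring. The latter fell short of 1.5-fold without background correction, under median scaling and in the non-normalized table, with log2 values of 0.56, 0.56 and 0.54. For all 3 genes the FR30 high-fat sample held the highest value. The fourth, Adh6a, was not detected.

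In the RefSeq annotation of GRCr8 the 6 Adh genes lie side by side on chromosome 2, in the order Adh7, Adh1c, Adh6a, Adh6, Adh4 and Adh5, with no other protein-coding gene between them. The promoter windows of Adh4 and Adh6, from 250 bases before to 50 bases after the annotated start, were nearly the same: 281 of 289 aligned bases were identical, or 97.2%. The other pairs of Adh1, Adh4, Adh6 and Adh6a had 57.0% to 67.3%. Both windows are shown 5′ to 3′ because these neighbours were the Adh genes with the largest differences; Adh4 is at chr2:229621842-229622141 and Adh6 at chr2:229576386-229576685, both on the + strand. Capitals mark bases left unmatched in the alignment of the windows to each other.
Adh4: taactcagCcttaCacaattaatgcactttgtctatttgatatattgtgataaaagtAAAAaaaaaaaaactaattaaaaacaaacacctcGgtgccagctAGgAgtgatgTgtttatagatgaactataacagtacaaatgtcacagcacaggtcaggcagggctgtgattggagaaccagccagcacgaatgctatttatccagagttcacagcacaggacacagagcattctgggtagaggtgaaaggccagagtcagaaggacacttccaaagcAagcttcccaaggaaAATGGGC
Adh6: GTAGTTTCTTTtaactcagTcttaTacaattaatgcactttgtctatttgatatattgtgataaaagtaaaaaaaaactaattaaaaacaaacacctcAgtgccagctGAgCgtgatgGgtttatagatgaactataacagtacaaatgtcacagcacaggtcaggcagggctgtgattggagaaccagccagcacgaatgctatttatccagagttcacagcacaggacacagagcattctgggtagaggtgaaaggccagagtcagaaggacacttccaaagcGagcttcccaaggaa
Capitals at the 5′ end of the Adh6 window and the 3′ end of the Adh4 window lie where the windows are offset and have no counterpart. Whether the probes of Adh4 and Adh6 tell their transcripts apart cannot be read from the files, which hold no probe sequences. Their diet differences in control offspring were of unlike size, 0.41 for Adh4 and 1.54 for Adh6 on the log2 scale.

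Aldo-keto reductases held the member with the widest range. Akr1c21 (now Akr1c2), whose mouse namesake is a 3-alpha and 17-alpha hydroxysteroid dehydrogenase, had signals of 10974, 15965, 3501.5 and 9151. The FR30 standard value stood below all others, and the STDEV was at most 4.76% of the signal in any sample. Akr1c21 was 3.28-fold lower in FR30 than in control offspring on the standard diet and 1.74-fold lower on the high-fat diet. With diet it was 2.69-fold higher in FR30 offspring and 1.43-fold in control offspring. With the non-normalized values, assigned to genes through their row order, its log2 differences for FR30 minus control were -1.69 and -0.79. For diet they were 1.41 and 0.51. The normalized table gave -1.71, -0.80, 1.43 and 0.51. The assignment also used likeness of signal in these same samples, so this closeness is partly built in.

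The gene is one of 10 Akr1c and Akr1e genes on chromosome 17 that span 11 protein-coding genes, and whether its probe also reads a paralog was not tested. Its neighbours on the array did not share its range. Akr1c18 (now Akr1c3), the 20-alpha-hydroxysteroid dehydrogenase that inactivates progesterone, read 1407, 1615, 1176 and 1519, and its largest fold was 1.32. Akr1c12, a relative with no role stated here, read 2969, 2682, 3051 and 3026, all within 1.14-fold. Akr1cl2 (now Akr1e2), the reductase of 1,5-anhydrofructose, read 987, 871, 915 and 1113. Its difference between FR30 and control offspring on the high-fat diet, 1.32-fold, stayed below the threshold.

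The promoter window of Akr1c21, at chr17:70717831-70718130 on the - strand, is shown because this gene had the largest difference of all members. Capitals mark 2 matches to the STAT palindrome TTCNNNGAA, the letter pattern bound by STAT factors downstream of growth hormone.
Akr1c21: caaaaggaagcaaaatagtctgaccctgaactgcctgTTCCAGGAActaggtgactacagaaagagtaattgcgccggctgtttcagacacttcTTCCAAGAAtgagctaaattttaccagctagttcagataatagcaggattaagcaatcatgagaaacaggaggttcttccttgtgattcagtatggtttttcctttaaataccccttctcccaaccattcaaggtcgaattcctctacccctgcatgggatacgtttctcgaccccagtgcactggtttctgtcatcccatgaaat
The first match begins 213 bases before the annotated start. On either strand this pattern is found in 8.87% of 33469 promoter windows and in 4 of the 38 windows available for members. The others with a match are Aldh5a1, Aldh16a1 and Hsd3b7, none of which differed by 1.5-fold. The core of the antioxidant response element, TGACNNNGC, was present in 7 of 38 member windows and in 12.1% of all windows. A match describes letters in a window and does not show binding.

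Akr7a3 and Akr7a2, which lie next to each other on chromosome 5, differed from one another in their relation to diet. Akr7a3, the inducible aflatoxin aldehyde reductase of rat liver, had signals of 1006 and 2139 in the control samples on standard and high-fat diet, and of 933 and 1878 in the FR30 samples. It was 2.29-fold higher with diet in control and 2.20-fold in FR30 offspring, while FR30 and control offspring differed by 1.10-fold and 1.14-fold. Erythroid markers were also higher in both high-fat samples, and their part in this difference was not tested. Akr7a2, which reduces succinic semialdehyde, read 1576 and 1515 in the control and 1289 and 1934 in the FR30 samples. It passed the threshold with diet in FR30 offspring, 1.56-fold higher, and was 1.05-fold lower with diet in control offspring. Neither window of this pair holds TGACNNNGC, and their windows were identical at 58.5% of aligned bases.

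Other aldo-keto reductases differed less. Akr1d1, the 5-beta-reductase of bile acid synthesis, read 6289, 9414, 8634 and 9838. The control standard sample was the low one, by 1.46-fold against control high-fat, just under the threshold. Akr1a1, the aldehyde reductase that in rodents also serves ascorbate synthesis, stayed within 1.13-fold, between 6757.5 and 7609.9. Akr1b1, aldose reductase of the polyol pathway, read 655, 701, 905 and 700.1. The third of these, from FR30 on standard diet, carried a STDEV of 368, or 40.7%. That difference of 1.48-fold on the standard diet was 0.56 on the log2 scale and 0.10 in the non-normalized table. Akr1cl1 (now Akr1c15) read 176.3, 182.6, 209.4 and 181.8, and its STDEV was 62.3 in the FR30 standard sample. Its differences, at least 1.65-fold higher in FR30 on the standard diet and 1.52-fold lower with diet in FR30 offspring, were the calls of this family with overlapping intervals of 2 STDEV. In the non-normalized table Akr1cl1 was not detected in the FR30 standard sample. The part of the adipocyte and muscle markers, which were high in this sample in the normalized table, was not tested for either gene.

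Aldehyde dehydrogenases mostly showed small differences, with 8 of 12 members detected on every sample and a median log2 diet difference of -0.28 in control and -0.10 in FR30 offspring. Aldh1l2, the mitochondrial 10-formyltetrahydrofolate dehydrogenase, read 398 and 289 in the control samples on standard and high-fat diet, and 360.2 and 288 in the FR30 samples. It was lower with diet by 1.72-fold in control and 1.48-fold in FR30 offspring. Without background correction the control value was -0.46 on the log2 scale, short of 1.5-fold. Aldh1b1, a mitochondrial enzyme related to Aldh2, was lower with diet as well, by 1.43-fold and 1.32-fold, below the threshold in both.

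Aldh1a3, which makes retinoic acid from retinaldehyde, was close to the background, with 224, 193, 202 and 215. Its diet difference in control offspring, 1.53-fold lower, passed the threshold narrowly and did not pass it in the non-normalized table, without background correction or with an offset of 50, with log2 values of -0.57, -0.22 and -0.41. Aldh9a1, which works in carnitine synthesis, read 3819, 3006, 3171 and 4207. It was 1.28-fold lower with diet in control and 1.35-fold higher in FR30 offspring, both under the threshold. Aldh5a1, the succinic semialdehyde dehydrogenase of GABA breakdown, read 1510.4, 1335, 1356 and 1567, in the same shape.

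Aldh7a1, antiquitin of lysine breakdown, lay between 9657 and 10692 in the 4 samples, and its largest fold was 1.13, lower with diet in control offspring. Aldh3a2, the fatty aldehyde dehydrogenase, lay between 7145 and 8212, and Aldh16a1 between 1633 and 1969. In the non-normalized table Aldh3a2 had 2 probes by row order, 1 with signals from 13850 to 16253 and 1 near the background, from 167.5 to 181.7. The normalized value of Aldh3a2 lies between them in every sample.

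Among the glucocorticoid enzymes, Hsd11b1, which regenerates active glucocorticoid in liver, varied little. Its signals were 35018, 30150, 29972 and 29372. The control standard sample was the highest, by 1.18-fold over control high-fat and 1.14-fold over FR30 standard, far from the threshold. From a list of 11 genes of glucocorticoid action, chosen with earlier results of these data known, 9 had values. With diet 3 of these were at least 1.5-fold higher and 1 lower in control offspring, and 0 higher and 1 lower in FR30 offspring, against 2.62% higher and 3.4% lower, and 3.87% higher and 3.4% lower, of all genes. Per1, a clock gene that glucocorticoids also induce, read 254.6, 506.0, 392.6 and 313.9. Serpina6, the corticosteroid-binding globulin of plasma, read 9077, 13857, 11050 and 10214, with the control high-fat sample highest for both genes. The lower gene of the list was Sgk (now Sgk1) in each case, by 1.90-fold with diet in control and 1.66-fold in FR30 offspring.

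Sex steroid enzymes included the members whose diet differences were least alike in control and FR30 offspring. Hsd3b5, which in rat liver is the male-predominant 3-ketosteroid reductase of the family, read 10454 and 7718 in the control samples on standard and high-fat diet and 9228 and 13842 in the FR30 samples. The control high-fat sample was lowest and the FR30 high-fat sample highest, with STDEVs of at most 3.17% of the signal. Diet went with a 1.36-fold lower value in control and a 1.49-fold higher value in FR30 offspring, so that the difference between both diet differences was 2.03-fold. On the high-fat diet Hsd3b5 was 1.79-fold higher in FR30 than in control offspring. Hsd3b5 lies beside Hsd3b2, Hsd3b3 and Hsd3b1 on chromosome 2, and whether its probe also reads one of them was not tested.

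Srd5a1, the type 1 5-alpha-reductase, which inactivates glucocorticoids and converts testosterone to dihydrotestosterone and is higher in female than in male rat liver, read 685 and 664 in the control samples on standard and high-fat diet. In the FR30 samples it read 900.2 on the standard and 463 on the high-fat diet, the highest and the lowest of the 4. Srd5a1 was 2.35-fold lower with diet in FR30 offspring and 1.04-fold lower in control offspring, a difference between diet differences of 2.26-fold. FR30 offspring were 1.40-fold above control on the standard diet, which is under the threshold, and 1.62-fold below it on the high-fat diet. Without background correction the latter was -0.52 on the log2 scale, short of 1.5-fold, and the difference between diet differences was under 2-fold. Srd5a2, the type 2 enzyme, stayed between 310.2 and 341.4. These 2 genes, Hsd3b5 and Srd5a1, are the members whose diet differences differed by at least 2-fold between control and FR30 offspring, 2 of 34, against 2.18% of 8457 genes. Hsd3b5 was the higher one, against 1.1% of all genes, and Srd5a1 the lower one, against 1.08%.

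The promoter window of Srd5a1, at chr1:35514664-35514963 on the + strand, is shown as that of the member with the largest difference between diet differences. Capitals mark 7 matches to the GC box GGGCGG on either strand.
Srd5a1: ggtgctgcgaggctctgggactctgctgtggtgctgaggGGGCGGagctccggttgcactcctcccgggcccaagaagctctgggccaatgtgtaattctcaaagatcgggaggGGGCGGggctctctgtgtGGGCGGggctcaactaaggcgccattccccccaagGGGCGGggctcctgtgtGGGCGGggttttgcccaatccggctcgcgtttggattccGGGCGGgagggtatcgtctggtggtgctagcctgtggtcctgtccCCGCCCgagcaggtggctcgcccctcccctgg
At least 1 GC box was present in 19 of 38 member windows and in 33.1% of all windows, and in neither Adh4, Adh6 nor Akr1c21.

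**Figure D3:**
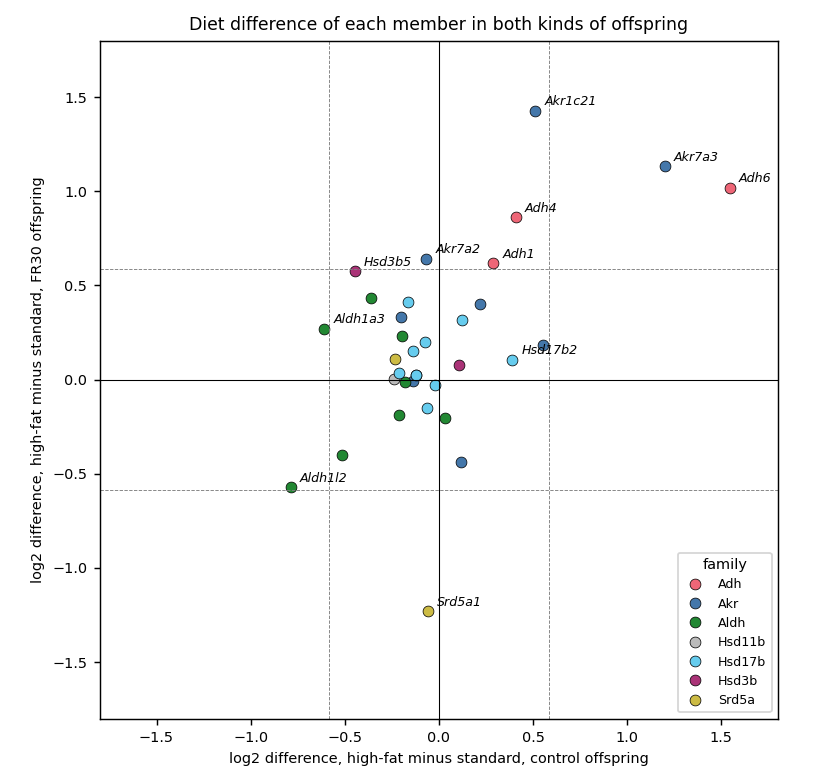
Log2 difference of high-fat minus standard diet in control offspring (horizontal axis) against that in FR30 offspring (vertical axis) for the 34 members detected on all 4 samples, coloured by family. Dashed lines mark 1.5-fold. Adh6 and Akr7a3 lie beyond the lines in both directions at the upper right, Srd5a1 lies low near the vertical axis, and Hsd3b5 lies upper left.

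Hsd17b2, which oxidises oestradiol and testosterone to weaker steroids, was higher in FR30 offspring. It read 5694 and 7442.5 in the control samples on standard and high-fat diet and 9357 and 10189 in the FR30 samples. The difference was 1.65-fold on the standard diet and 1.36-fold, under the threshold, on the high-fat diet. The other detected members of this family did not pass 1.5-fold in any comparison. Hsd17b6, an oxidative enzyme of androgen and retinoid metabolism, lay between 13759 and 14938. Hsd17b3, the testosterone-forming enzyme of testis, read 207.8 to 214.7, close to the background.

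Several Hsd17b genes serve lipid rather than steroid metabolism. Hsd17b4, the D-bifunctional protein of peroxisomal beta-oxidation, lay between 23581 and 27119, and Hsd17b12, the ketoacyl reductase of fatty acid elongation, between 4316 and 4955. Hsd17b10, a mitochondrial enzyme of isoleucine breakdown, read 4334, 3961, 4423.5 and 4942, and Hsd17b8, of mitochondrial fatty acid synthesis, lay between 1413 and 1614. Hsd17b11 and Hsd17b13, neighbours on chromosome 14 that encode lipid droplet proteins, read 20744, 22144, 19157 and 22738, and 9919, 9025.5, 8489.9 and 11202. Both were lowest in the FR30 standard and highest in the FR30 high-fat sample, and the largest fold of Hsd17b13 was 1.33, with diet in FR30 offspring. Hsd3b7, which acts on bile acid precursors, stayed between 16280 and 17651.

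Over the 34 members detected on all samples, median differences were small. The members' signs leaned opposite ways in the comparisons, which share samples and are not separate results. In control offspring 12 were higher and 22 lower on the high-fat diet, with a median log2 difference of -0.10 against 0.01 for all genes. In FR30 offspring, with 1 more member detected, 24 were higher and 11 lower, with a median of 0.11 against 0.00. On the standard diet, again with 35 members, 11 were higher and 24 lower in FR30 offspring, and on the high-fat diet 22 and 12. Medians there were -0.11 and 0.09 against 0.00 and -0.01. Of all genes detected on both samples, 52.5% were higher with diet in control and 49.2% in FR30 offspring. For FR30 minus control, 49.6% were higher on the standard and 48.0% on the high-fat diet. Taken without sign, the members' median log2 differences exceeded those of all genes. With diet they were 0.20 in control and 0.27 in FR30 offspring, against 0.15 for all genes in each. For FR30 minus control they were 0.18 on the standard and 0.185 on the high-fat diet, against 0.12 for all genes in each. The FR30 high-fat sample held the highest value for 15 of 34 members and the control high-fat sample the lowest for 12, while over all genes detected on every sample these shares were 23.9% and 23.7%. All members together made up 1.20%, 1.22%, 1.13% and 1.29% of the summed signal. Between both diet comparisons, 18 of 34 members had the same sign, and 59.7% of all genes did.

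Enzymes that work beside these families were counted from lists chosen by function, with earlier results of these data known. Their counts beside the shares of all genes are therefore descriptive and do not show an excess. Other carbonyl reductases and retinol dehydrogenases had 10 genes with values from 18 listed names, of which Rdh2 and Rdh16 are the same gene. With diet 2 were lower and 0 higher in control offspring, where 3.4% of all genes were lower, and 2 higher and 0 lower in FR30 offspring, where 3.87% were higher. FR30 minus control gave 2 lower and 0 higher on the standard diet, against 2.24% of all genes lower, and 2 higher and 0 lower on the high-fat diet, against 1.88% higher. Rdh2 (now Rdh16), a retinol dehydrogenase, read 1588 and 501 in the control samples and 719 and 1054 in the FR30 samples on standard and high-fat diet, and Dhrs7, a microsomal reductase, 11668.5 and 4931.5 and 5201.5 and 7346. Both were highest in the control standard sample, unlike Hsd3b5, and both were lower with diet in control offspring and higher in FR30 offspring, as Hsd3b5 was. Cbr1, a cytosolic carbonyl reductase, was 2.12-fold higher with diet in FR30 and 1.36-fold in control offspring.

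Steroid conjugation had 9 genes with values from 18 listed names, some of which are older and current names of the same gene. On the standard diet 3 were lower and 0 higher in FR30 than in control offspring, against 2.24% of all genes lower: Ugt2b17 by 3.61-fold, Smp2a (now Sult2a6) by 1.67-fold and Ugt2b with a log2 difference of -0.68. With diet in FR30 offspring the counts were 3 higher and 0 lower, against 3.87% of all genes higher, and this comparison shares the FR30 standard sample. FR30 minus control on the high-fat diet gave 1 higher, Ugt2b17 by 1.85-fold, and 0 lower, against 1.88% of all genes higher. With diet in control offspring 1 was higher and 1 lower, against 2.62% and 3.4% of all genes. The lower gene there was Ugt2b17, by 3.17-fold. Bile acid and oxysterol synthesis, the pathway of Akr1d1 and Hsd3b7, had 9 of 10 genes with values, of which 2 were higher and 0 lower with diet in control and 4 higher and 0 lower in FR30 offspring, against 2.62% and 3.87% of all genes higher. Its medians were 0.48 and 0.58 on the log2 scale, against 0.55 and 0.19 for Akr1d1 and 0.11 and 0.08 for Hsd3b7. Ethanol and acetaldehyde oxidation had 4 of 5 genes with values, 1 of them, the acyl-CoA synthetase Acss3 (RGD1307051 in the file), lower with diet in both kinds of offspring, as were 3.4% of all genes in each. Acss3 was close to the background, with signals of 242.3, 193.6, 272.8 and 210.4. Polyol and fructose metabolism had 3 genes with values from 6 listed names, with 0 past 1.5-fold in any comparison. Of 4 adrenal and gonad markers, Cyp17a1 alone was detected, at 800.7, 367.7, 525.3 and 387.5, and Cyp11a1, Cyp11b1 and Star were not detected on any sample.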

How the data were processed

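Per the file headers, the authors deposited normalized signal intensity per gene, with STDEV and detection p-value columns per sample, and a second table of non-normalized intensity with detection p-values. The submitters' processing notes list GenomeStudio. The normalization method was not given in the sources used here. Deposited intensity in the series matrix was identical to the normalized table. Matched by identifier, the log2 intensity of both deposited tables correlated at r of 0.0587 to 0.0658 over 21791 rows. Matched by row order it correlated at 0.99858 to 0.99998 over 20438 genes with 1 row, so the normalized table was used and the other served by row order as an alternative. That alignment was chosen by signal, so a high r is partly built in.

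Background correction used the normexp method in limma 3.58.1 (R 4.3.3), fitted on 21187 rows whose detection p-values were not averaged over probes, with an offset of 16, followed by quantile normalization and log2. Later steps used Python 3.11.15, numpy 2.4.6, pandas 2.3.3, numba 0.67.0, biopython 1.88 and matplotlib 3.10.9. The row of highest mean signal was kept per gene. Where only 1 of both samples detected a gene, a bound was computed: the undetected value was replaced by the lowest detected one there if that was higher. Members were called at 1.5-fold, or 2-fold for the difference between diet differences, on the whole table. The functions were tested on simulated data. Members named by rule are those called in a comparison, the 10 brightest and the brightest of each family; values of other members were chosen after they were seen. Members and lists were chosen with earlier results of these data known. Names were updated through a RefSeq table of GRCr8, where 42 members held a current symbol and 6 were renamed, and promoter windows come from RefSeq on the same build, for 38 members. The number of arrays limits the precision.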

Additional observations from a re-analysis of the deposited data

Results flagged for a closer look

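Hsd3b5 stood out because its diet difference had opposite signs in control and FR30 offspring, with log2 values of -0.45 and 0.57. The corresponding FR30 minus control differences were -0.18 on the standard and 0.84 on the high-fat diet. Srd5a1 stood out because FR30 minus control was 0.48 on the standard and -0.69 on the high-fat diet. With 1 sample a group these differences between groups were not tested, and each rests on the same 4 samples.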

How the results depend on the processing

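Of the 516 recomputed values of named members under 7 alternatives, 500 kept their side of the threshold. Another 14 no longer passed it, 2 newly passed it, and 0 called values turned direction. The mean of several rows could not move a member, because no other row shared a member's current symbol. Stricter detection and the demand that intervals of 2 STDEV lie apart kept the log2 values of genes detected on both samples. Neither could turn their direction. Each of these alternatives gave 74 of the values. Of the uncalled values 14 changed sign, all at most 0.09 on the log2 scale, for Adh1, Hsd11b1, Hsd17b4, Hsd17b6 and Hsd3b7, without background correction, under median scaling or in the non-normalized table. Without background correction 2 members in place of 4 passed with diet in control offspring, since Aldh1a3 and Aldh1l2 read -0.22 and -0.46, and 1 in place of 2 for the difference between diet differences, where Srd5a1 no longer passed; Srd5a1 on the high-fat diet read -0.52; folds shrink by construction there. Every other count of called members stayed within 1.5 times. Akr1cl1 did not pass without background correction, with an offset of 50 or when intervals of 2 STDEV had to be apart, and it had no value in the non-normalized table. Adh1 with diet in FR30 offspring read 0.56 under median scaling and 0.54 in the non-normalized table, and 0.56 without background correction, where Hsd3b5 passed at 0.585, as it did at 0.587 under median scaling. Stricter detection (p under 0.01) and the mean of several rows changed no count of called members. Aldh1a3 also missed the threshold with an offset of 50, at -0.41, and in the non-normalized table. The signs of the members leaned the same way under every alternative, including those that could not change them. Signals near 154, such as those of Aldh1a3 and Akr1cl1, are limited by background. No paired analysis was possible because each group has 1 sample.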
